A study of Mus musculus with 12 samples.

Results

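The adhesion genes Alcam, Vcam1, Icam1, Ncam1, Mcam, Cadm1, Nectin2, Nectin3, Cdh2 and Cdh11 were followed on every array of a study of IER2 in mouse fibroblasts. These 10 genes were chosen by name and by the array values of Alcam, which is much lower in the inducible clone, so every difference between the cell lines in these genes is given as a description without a test. A named probe set was found for 9 of the 10, out of 16475 probe sets tested in all. The tenth, Cdh2 (N-cadherin), is not analysed here. RNA came from NIH 3T3 mouse fibroblasts, called parental, and from 3T3-ind-IER2 #11, 1 clone of the same line in which RheoSwitch controls an added mouse IER2 gene, called inducible. In that system, a receptor and an activator made from a first plasmid switch on the gene of interest on another plasmid once the ligand RSL is added. Cells of both lines received 200 nM RSL or DMSO, the solvent, for 24 h, and each of the 4 groups holds 3 arrays labelled as biological replicates. The growth protocol gives G418 and hygromycin in the medium of all arrays. Because the inducible cells are a single clone, an effect of the inserted system cannot be told apart from any other feature of that clone. In a culture profiled as a whole, fewer expressing cells and less RNA per cell cannot be told apart either.

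Adhesion molecules of the immunoglobulin type are cell surface proteins whose outer part is built of immunoglobulin-like domains. They hold cells together by binding the same molecule, a relative or an integrin on the neighbouring cell. Cadherins are calcium-dependent adhesion molecules that bind the same cadherin on the next cell and are tied to actin inside the cell by catenins. Nectins bind each other across the contact and connect to actin through afadin. Fibroblasts are known for cadherin-11 and N-cadherin at their contacts, and VCAM1 and ICAM1, which bind leukocyte integrins, are well known as genes raised by inflammatory cytokines in endothelium and stromal cells.

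All values are log2 expression as the authors deposited it. Arrays of the same group correlated at 0.9981 to 0.9992 over all probe sets, 0.9978 to 0.9988 was found between the treatments of a line and 0.9913 to 0.9932 between the lines. Of 10 fibroblast markers, 9 lay above the array median on all 12 arrays and 1, Lum, lay below the first quartile on all of them. Of the markers of other cell types, 4 of 8 for endothelium, 4 of 8 for epithelium, 2 of 8 for macrophages and 2 of 6 for neural cells lay below the first quartile of every array. Above the median of every array were 0 of the endothelial, epithelial and neural markers and 1 macrophage marker, Csf1r, with group means of 7.29 to 7.53. Cdh5 and Pecam1 of endothelium and Ptprc of leukocytes were below the first quartile on all arrays, whereas Kdr of endothelium and Cd68 of macrophages were below it on none. Between the lines under DMSO, where 29.7% of all probe sets passed in limma, the markers that passed were 5 of fibroblasts higher and 2 lower in inducible cells, 2 higher and 1 lower for endothelium, 1 higher and 1 lower for macrophages, 2 higher for epithelium and 1 lower for neural cells. These are 70% of the fibroblast, 37.5% of the endothelial, 25% of the macrophage, 25% of the epithelial and 16.7% of the neural markers. The logarithm of the summed fibroblast markers was 14.37 to 14.54 in inducible cells under DMSO, 14.38 to 14.50 under RSL, 14.36 to 14.37 in parental cells under DMSO and 14.21 to 14.33 under RSL. That of the endothelial markers was 9.25 to 9.31, 9.24 to 9.30, 9.14 to 9.22 and 9.18 to 9.21 in the same order, and Tie1, one of them, was higher in inducible cells by 0.73 (adjusted p = 5.24e-08 from limma). Over all 12 arrays the same sum ran from 9.43 to 9.53 for macrophages, 9.22 to 9.32 for epithelium and 8.86 to 9.03 for neural cells. The part of these markers in the results below was not tested. The probe set of Ier2 averaged 9.02 in inducible cells under DMSO and 8.55 under RSL, and 8.58 and 8.75 in parental cells. With RSL it was thus lower in inducible cells, at a log2 change of -0.47 (adjusted p = 4.64e-05 from limma), rank 2 from the lowest. In parental cells it changed by 0.17, which did not pass (adjusted p = 0.366 from limma). Where its probes lie relative to the inserted gene is not known here, so it does not check the labels.

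Alcam encodes ALCAM, or CD166, which binds itself and CD6, a surface receptor on T cells. In inducible cells it read 8.35, 8.26 and 8.21 under DMSO and 8.41, 8.36 and 8.29 under RSL, and in parental cells 9.31, 9.47 and 9.42 under DMSO and 9.35, 9.30 and 9.36 under RSL. All 6 inducible arrays lay below all 6 parental arrays, whereas within each line the RSL and DMSO arrays overlapped. Inducible minus parental cells, the log2 difference was -1.12 under DMSO, which is 2.18-fold lower, and -0.98 under RSL, which is 1.98-fold lower. Ordered from the lowest of 16475 probe sets, the first value ranks 8 and the second 12. Alcam lay above the third quartile of the array in the 6 parental arrays and between the median and the third quartile in the 6 inducible arrays. The 250 bases before its start in RefSeq (GRCm38.p6, chr16:52453082-52453331, minus strand) are shown because this gene carries the largest fall among the listed genes. Capitals mark GGGCGG, the GC box, and CCAAT, each searched on both strands.
Alcam: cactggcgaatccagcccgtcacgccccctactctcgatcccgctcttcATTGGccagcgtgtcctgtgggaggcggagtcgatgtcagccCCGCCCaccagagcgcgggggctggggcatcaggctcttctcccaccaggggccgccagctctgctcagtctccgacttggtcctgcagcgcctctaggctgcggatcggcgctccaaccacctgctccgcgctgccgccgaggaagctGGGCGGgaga
The window holds 2 GC boxes and 1 CCAAT, here as the letters of the opposite strand. Across all 32851 promoter windows of the same length, 32.7% hold GGGCGG and 33.9% hold CCAAT. Of the 5 listed genes present in that table (Alcam, Icam1, Mcam, Nectin2 and Nectin3), 5 hold GGGCGG and 1, Alcam, holds CCAAT.

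With RSL, Alcam moved by 0.08 on the log2 scale in inducible cells (standard error 0.05, adjusted p = 0.583 in limma) and by -0.06 in parental cells (standard error 0.05, adjusted p = 0.658 in limma). Neither passed the test, and the 95% intervals were -0.02 to 0.18 and -0.16 to 0.03. The difference of these effects was 0.14 (95% interval 0.00 to 0.28), with an unadjusted p of 0.0456 and an adjusted p of 0.537 in limma.

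Vcam1 encodes the ligand of the integrin whose alpha chain is Itga4. It read 10.17, 10.15 and 10.14 in inducible cells under DMSO, 10.31, 10.34 and 10.24 under RSL, 8.81, 8.81 and 8.82 in parental cells under DMSO and 8.67, 8.71 and 8.69 under RSL. No 2 of the 4 groups overlapped, and the order from low to high was parental RSL, parental DMSO, inducible DMSO, inducible RSL. The log2 difference between the lines was 1.34 under DMSO, 2.53-fold higher in inducible cells, and 1.60 under RSL, 3.04-fold higher. These values rank 21 and 15 from the highest of all probe sets. Vcam1 was above the third quartile of all 12 arrays. Its receptor chain Itga4 lay below the first quartile on all 12 and did not pass between the lines (log2 difference -0.02, adjusted p = 0.74 from limma), while its partner chain Itgb1, named after its values were seen, averaged 9.71 in inducible and 9.68 in parental cells under DMSO.

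Vcam1 was the member that passed the test for RSL in inducible cells. It rose there by a log2 change of 0.15 (standard error 0.03, 95% interval 0.08 to 0.21, adjusted p = 0.0224 from limma), and all 3 RSL arrays lay above all 3 DMSO arrays. Of all probe sets, 2.54% passed in this comparison, 1.32% as higher and 1.21% as lower, against 1 of the 9 adhesion genes. In parental cells Vcam1 was lower on all 3 RSL arrays than on all 3 DMSO arrays, with a log2 change of -0.12 (standard error 0.03) that did not pass after adjustment (unadjusted p = 0.00192, adjusted p = 0.34 in limma). An exact permutation test over arrays gives p = 0.1 for either line, the smallest value possible with 3 against 3. The difference of the RSL effects was 0.26 (standard error 0.05, 95% interval 0.17 to 0.36, adjusted p = 0.0108 from limma). It was past the threshold in a comparison where 0.662% of all probe sets were, 0.358% with a positive value. RSL groups that do not overlap in either line and go in opposite directions were seen for 0.947% of all probe sets and for 1 of the 9 genes. The call in inducible cells was lost without DMSO replicate 1, 2 or 3 or without RSL replicate 1 or 2 of these cells (adjusted p from 0.0143 to 0.104 in limma over all 12 arrays left out in turn) and with only the 6 inducible arrays in the fit (adjusted p = 0.0637), while the change itself stayed between 0.13 and 0.17. The difference of the effects kept an adjusted p of 0.00139 to 0.0379 in limma under all 18 alternatives. These 18 do not include the fit of only 6 arrays or the one-way analysis named in the methods, which were not run for this difference. In that one-way analysis the call in inducible cells was lost after Benjamini-Hochberg adjustment (adjusted p = 0.22).

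Icam1, the ligand of the leukocyte integrin formed by Itgal and Itgb2, was at the low end of the arrays in both lines. It read 6.25, 6.25 and 6.27 in inducible cells under DMSO, 6.14, 6.26 and 6.24 under RSL, 6.19, 6.11 and 6.24 in parental cells under DMSO and 6.14, 6.17 and 6.18 under RSL. The lines did not overlap under DMSO and overlapped under RSL, by log2 differences of 0.07 and 0.04. On 9 of 12 arrays the value was below the first quartile, which itself lay between 6.23 and 6.30. The deposited values hold no detection call, so a level there may be background, and differences between such values are not read as expression. With RSL it moved by -0.04 in inducible and -0.02 in parental cells on the log2 scale, neither past the test (adjusted p = 0.794 and 0.912 from limma). Icam1 is well known as a target of the inflammatory transcription factor NF-kB. The 250 bases before its RefSeq start (GRCm38.p6, chr9:21015690-21015939, plus strand) are shown for that reason, with GGGCGG and GGAAATTCC, a form of the NF-kB site, in capitals on either strand.
Icam1: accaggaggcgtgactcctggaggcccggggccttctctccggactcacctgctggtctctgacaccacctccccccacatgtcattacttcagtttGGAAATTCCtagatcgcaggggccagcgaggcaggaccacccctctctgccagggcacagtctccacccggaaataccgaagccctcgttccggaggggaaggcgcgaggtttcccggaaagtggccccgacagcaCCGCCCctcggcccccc
GGAAATTCC stands once in this window, in 0.286% of all promoter windows, and in none of the other 4 searched genes of the list.

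Ncam1 encodes NCAM, which binds itself and is known for its polysialic acid. It read 7.92, 7.89 and 7.91 in inducible cells under DMSO, 7.79, 7.80 and 7.75 under RSL, 8.05, 8.05 and 8.06 in parental cells under DMSO and 8.06, 8.003 and 7.95 under RSL. All inducible arrays lay below all parental arrays, by a log2 difference of -0.15 under DMSO and -0.23 under RSL. Within the inducible line the RSL arrays lay below the DMSO arrays without overlap, and within the parental line the groups overlapped. The log2 change with RSL in inducible cells was -0.13 (standard error 0.03, 95% interval -0.20 to -0.06), with an unadjusted p of 0.00155 and an adjusted p of 0.0569 in limma, just outside the threshold. It passed under 7 of 21 alternatives, 1 of them the methods' one-way analysis at its nominal threshold (unadjusted p = 0.00205, exact permutation p = 0.1), and the adjusted p under the other alternatives ran from 0.0297 to 0.2. In parental cells the change was -0.05 (adjusted p = 0.656 from limma), and the difference of the effects, -0.08 (95% interval -0.18 to 0.02, adjusted p = 0.666 from limma), did not pass.

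Mcam (CD146), an adhesion molecule of endothelium and pericytes, and Cadm1 (SynCAM), which binds itself and other nectin-like molecules, were low on the arrays. Mcam read 6.16, 6.12 and 6.28 in inducible cells under DMSO, 6.26, 6.14 and 6.19 under RSL, 6.36, 6.22 and 6.21 in parental cells under DMSO and 6.16, 6.25 and 6.28 under RSL. All of its groups overlapped, and 8 of 12 values lay below the first quartile of their array. Cadm1 read 6.09, 6.14 and 6.19 in inducible cells under DMSO, 6.16, 6.15 and 6.15 under RSL, 6.22, 6.15 and 6.16 in parental cells under DMSO and 6.19, 6.22 and 6.15 under RSL. All 12 values lay below the first quartile, and neighbouring groups overlapped. Neither gene passed the test for RSL in either line, with log2 changes of 0.01 and -0.03 for Mcam and 0.02 and 0.01 for Cadm1.

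**Figure D1:**
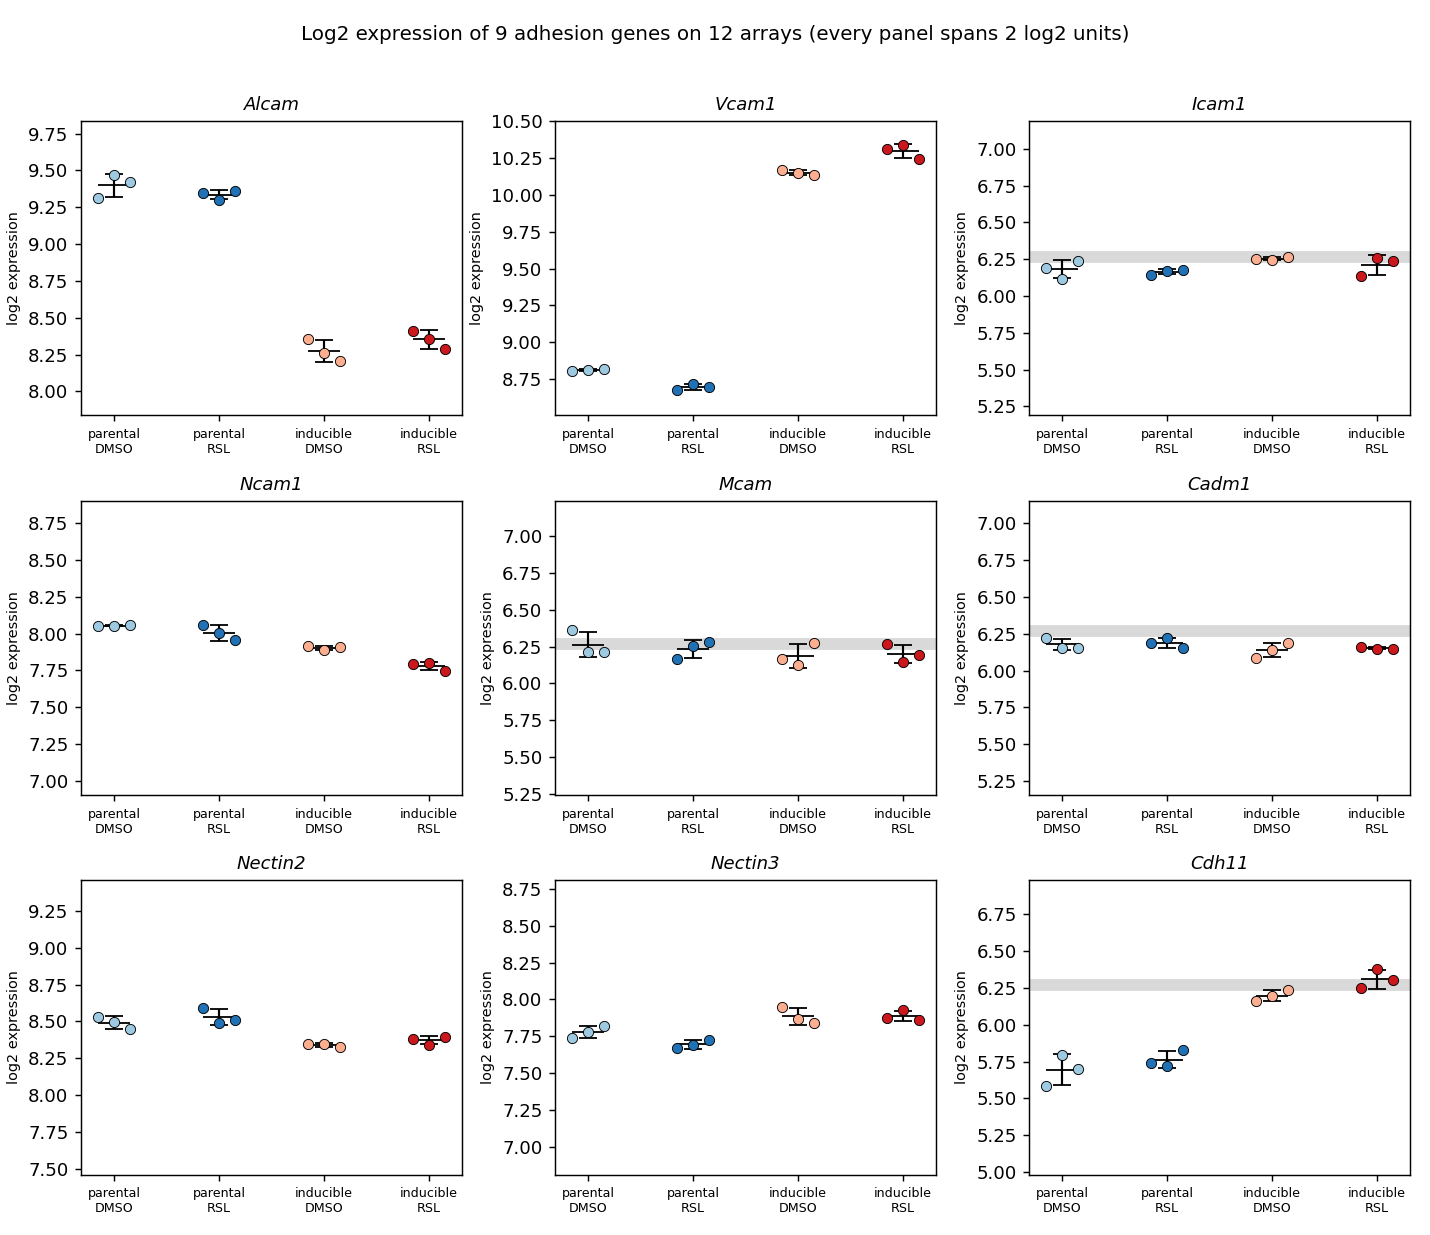
Log2 expression (vertical axis) of the 9 measured adhesion genes by array, with 1 point for each of 12; black bars give every group's mean ± SD over its 3 arrays, every panel spans 2 log2 units, and the grey band is the range of the first quartile over the arrays, 6.23 to 6.30. Alcam sits lower and Vcam1 higher in all 6 inducible arrays, while Icam1, Mcam and Cadm1 lie in or near the band, except 1 parental Mcam array above it.

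Nectin2 and Nectin3 encode nectins of cell contacts that bind across the junction. Nectin2 read 8.35, 8.35 and 8.33 in inducible cells under DMSO, 8.38, 8.34 and 8.39 under RSL, 8.53, 8.50 and 8.45 in parental cells under DMSO and 8.59, 8.49 and 8.51 under RSL. It was lower on all 6 inducible arrays than on all 6 parental ones, by a log2 difference of -0.15 under DMSO and -0.16 under RSL. Nectin3 went the other way, with 7.95, 7.87 and 7.84 in inducible cells under DMSO, 7.88, 7.93 and 7.86 under RSL, 7.74, 7.78 and 7.82 in parental cells under DMSO and 7.67, 7.69 and 7.73 under RSL. All inducible arrays lay above all parental arrays, by 0.11 under DMSO and 0.19 under RSL. With RSL, Nectin2 changed by 0.03 and 0.04 in inducible and parental cells on the log2 scale, Nectin3 by 0.00 and -0.08. The parental Nectin3 groups did not overlap, with an unadjusted p of 0.0409 and an adjusted p of 0.496 in limma. The difference of its RSL effects, 0.08, had an adjusted p of 0.699 in the same fit.

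Cdh11, cadherin-11 of mesenchymal cells, read 6.16, 6.19 and 6.23 in inducible cells under DMSO, 6.25, 6.38 and 6.31 under RSL, 5.58, 5.80 and 5.70 in parental cells under DMSO and 5.74, 5.72 and 5.83 under RSL. It was higher on all 6 inducible arrays, by a log2 difference of 0.50 under DMSO and 0.55 under RSL. On 9 of 12 arrays, among them all 6 parental ones, the value was below the first quartile, and the parental arrays lay between the percentiles 0.832 and 5.24 of all probe sets. The parental level may be background, so no fold is given and the size of the difference is not read as expression. With RSL the inducible arrays rose above their DMSO arrays without overlap, yet the log2 change of 0.11 (standard error 0.05) did not pass (unadjusted p = 0.0377, adjusted p = 0.358 in limma). In parental cells the change was 0.07 and the groups overlapped.

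**Figure D2:**
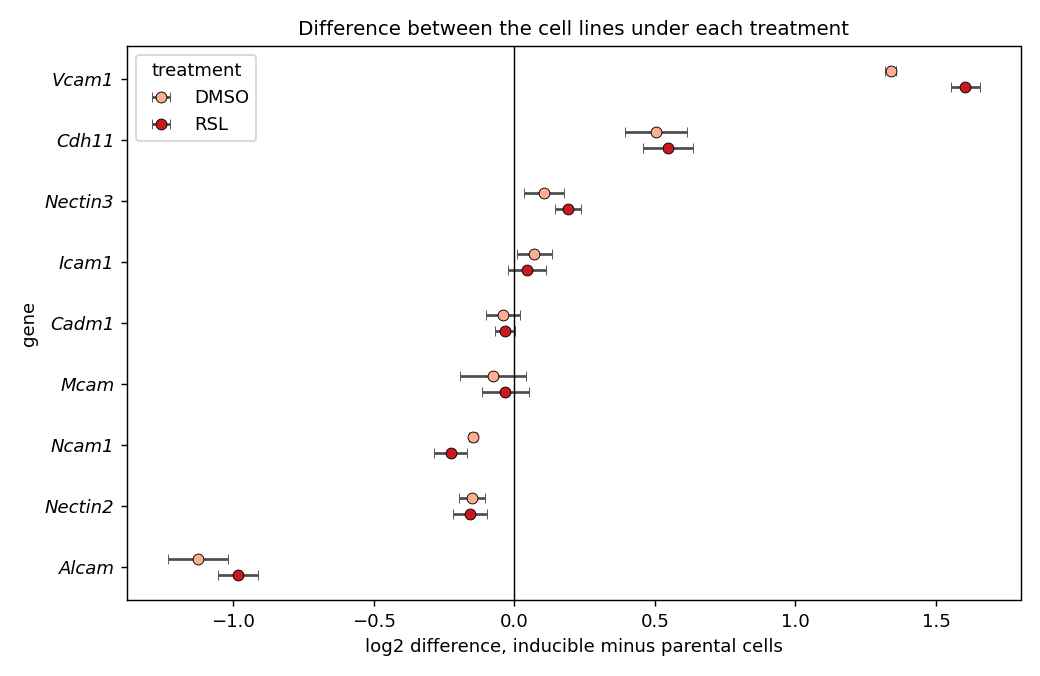
Log2 difference, inducible minus parental cells (horizontal axis), of each of the 9 genes under DMSO (light) and under RSL (dark); bars are the SDs of the 2 groups combined as the root of the sum of their squares. Alcam, at -1.12 and -0.98, and Vcam1, at 1.34 and 1.60, stand at the ends. Cdh11, at 0.50 and 0.55, may be at background in parental cells, and the other genes lie between -0.23 and 0.19.

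Over the 9 genes, Vcam1, Cdh11 and Nectin3 were higher and Alcam, Ncam1 and Nectin2 lower on all 6 inducible arrays than on all 6 parental ones, and Icam1, Mcam and Cadm1 overlapped between the lines over the 6 arrays of each. Of all probe sets, 25.2% had lines that did not overlap in this way. Under DMSO alone, groups did not overlap for 7 genes, where 40.2% of all probe sets did not, and under RSL for 6 genes, where 44.5% did not. A size of the log2 difference of at least 1 was reached by 2 of the 9 genes under DMSO, Alcam and Vcam1, and by 0.316% of all probe sets; under RSL it was reached by Vcam1 alone, where 0.297% of all probe sets reached it. Nothing is read from these counts, because the genes were listed with the fall of Alcam known. The median log2 difference of the 9 genes under DMSO was -0.04, against -0.01 over all probe sets.

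With RSL the changes were smaller. In inducible cells 1 of the 9 genes passed, 3 were at an unadjusted p under 0.05 where 12.3% of all probe sets were, and the groups of 3 (Vcam1, Ncam1 and Cdh11) did not overlap where 18.1% of all probe sets did not. The median log2 change of the 9 genes was 0.02, against 0.00 over all probe sets. In parental cells 0 of the 9 passed in limma, where 0.0303% of all probe sets did, with 2, Vcam1 and Nectin3, at an unadjusted p under 0.05 where 9.71% of all probe sets were, and the same 2 had groups that did not overlap, as did 13.3% of all probe sets. The methods' one-way analysis found 2 genes at the nominal threshold and 0 after Benjamini-Hochberg adjustment in parental cells. The median change there was -0.03, against 0.01 over all probe sets. The difference of the RSL effects passed for Vcam1 alone of the 9, and 2, Vcam1 and Alcam, were at an unadjusted p under 0.05 there, where 9.07% of all probe sets were.

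**Figure D3:**
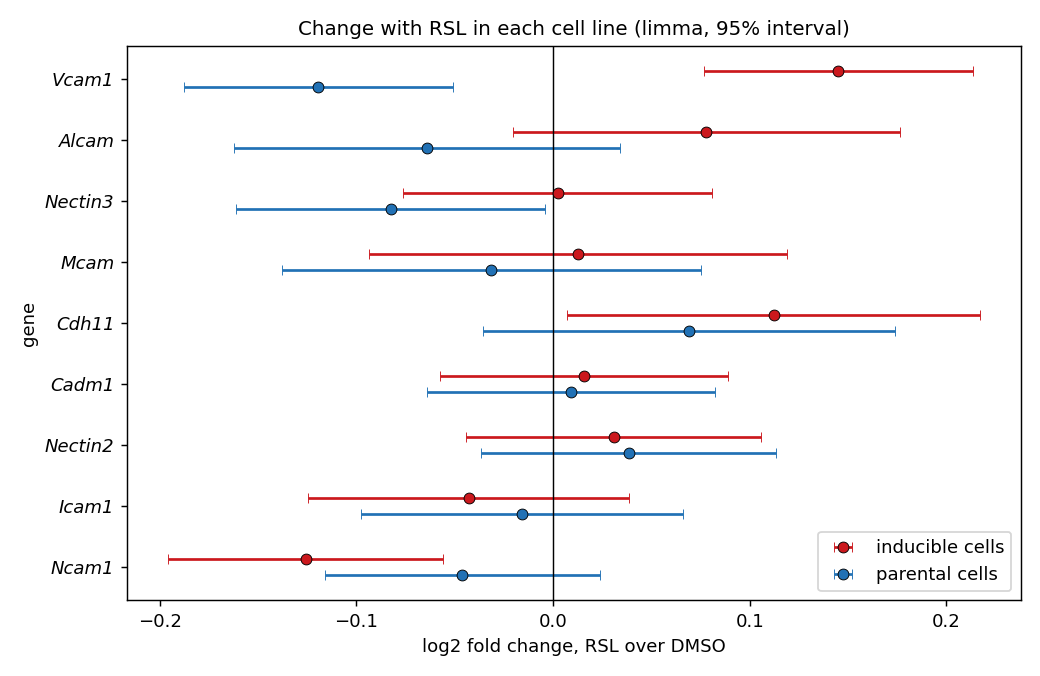
Log2 fold change with RSL (horizontal axis) of each gene in inducible cells (red) and in parental cells (blue), with the 95% interval from limma. Vcam1 lies at 0.15 in inducible and -0.12 in parental cells with intervals on opposite sides of 0; Ncam1 lies at -0.13 and -0.05, and most other intervals span 0.

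The other genes of cell adhesion were taken from lists by role. Of 44 other adhesion molecules of the immunoglobulin type, 38 were measured. With RSL in inducible cells 1 rose, Emb, and 1 fell, Pvr, 5.26% of the 38, where 2.54% of all probe sets passed. Emb encodes embigin, a partner of monocarboxylate transporters, and rose from a mean of 9.14 to 9.48, or by 0.33 (standard error 0.03, adjusted p = 2.6e-05 in limma). Emb did not pass in the methods' one-way analysis after Benjamini-Hochberg adjustment (adjusted p = 0.0878). Its parental means were 9.37 under DMSO and 9.41 under RSL, a change of 0.04 that did not pass (adjusted p = 0.656), and the difference of the effects was 0.29 (adjusted p = 0.00486 from limma). Pvr, the poliovirus receptor, which binds Nectin3, fell by 0.16 (adjusted p = 0.0225 from limma). That call ended without inducible DMSO replicate 1 or 2 or RSL replicate 1 or 2 (adjusted p up to 0.129). Between the lines under DMSO, where 29.7% of all probe sets passed, 15.2% as higher in inducible cells and 14.5% as lower, 4 of the 38 were higher in inducible cells and 5 lower. Cd47, the ligand of the phagocyte receptor SIRPA, was higher by 0.50 (adjusted p = 5.8e-09) and Thy1, a fibroblast surface glycoprotein, by 0.38 (adjusted p = 2.92e-07). Cd200, a surface ligand that restrains myeloid cells, was lower by a log2 difference of -0.40 (adjusted p = 1.52e-06) and Bsg, basigin, a relative of Emb, by -0.27 (adjusted p = 3.77e-05), all from limma. Bsg was named because it is a relative of Emb, after its value was seen.

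Of 41 other cadherins and protocadherins, 39 were measured. With RSL in inducible cells 1 of the 39 passed, or 2.56%, near the 2.54% of all probe sets. It was Pcdh19, which fell by a log2 change of -0.19 (adjusted p = 0.0165 from limma). This call ended without inducible DMSO replicate 1 or 2 or RSL replicate 2 or 3 (adjusted p up to 0.0924). Between the lines 2 were higher and 3 lower in inducible cells, 12.8% of the 39, where 29.7% of all probe sets passed. Pcdh19 was higher by 0.59 (adjusted p = 8.83e-09), Pcdh7 lower at -0.39 (adjusted p = 3e-05) and Pcdh18 lower at -0.20 (adjusted p = 0.000294). Cdh1, the cadherin of epithelium, differed by 0.17 (adjusted p = 0.0043 from limma), at group means of 6.08 and 5.91 that lie under the first quartile of the arrays.

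Of 32 cytoplasmic partners of cadherins, nectins and immunoglobulin-type molecules, among them links to actin, 30 were measured. With RSL in inducible cells, where 2.54% of all probe sets passed, 2 of the 30 partners (6.67%) fell. They were Actn1, an alpha-actinin that crosslinks actin, at -0.14 (adjusted p = 0.0296 from limma), and Pdlim1, which binds alpha-actinin, at -0.14 (adjusted p = 0.0425). Without any 1 of 5 of the inducible arrays, all but DMSO replicate 3, the Actn1 call ended (adjusted p up to 0.156), and without any 1 of the 6 inducible arrays, parental DMSO replicate 2 or parental RSL replicate 1 the Pdlim1 call ended (adjusted p up to 0.204). With the replicate number as a block neither passed (adjusted p = 0.0594 for Actn1 and 0.0828 for Pdlim1 in limma), nor with only the 6 inducible arrays in the fit (adjusted p = 0.0624 and 0.0579). Between the lines 6 partners were higher and 8 lower in inducible cells, 46.7% of the 30, where 29.7% of all probe sets passed. Lmo7, which binds afadin and alpha-actinin, was lower at a log2 difference of -0.66 (adjusted p = 8.59e-08), Pdlim1 at -0.60 (adjusted p = 1.63e-09) and Pkp2, the desmosome protein plakophilin, at -0.33 (adjusted p = 5.77e-06). The core catenins differed less. Ctnnb1, beta-catenin, did not pass at 0.00 (adjusted p = 0.979), and Ctnna1, alpha-catenin, did not pass at 0.09 (adjusted p = 0.0611). Ctnnd1, p120-catenin, was lower at -0.14 (adjusted p = 0.0065) and Jup, plakoglobin, higher at 0.27 (adjusted p = 0.000332). Afdn, the afadin that nectins bind, was lower at -0.09 (adjusted p = 0.0348 from limma). These catenin and afadin genes were named after their values were seen.

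Of 26 counter-receptors and partners in the same membrane, 24 were measured. For RSL in inducible cells 0 passed in limma, where 2.54% of all probe sets did. At an unadjusted p under 0.05 were 4 of the 24, where 12.3% of all probe sets were. Between the lines 2 were higher and 4 lower, 25% of the 24, where 29.7% of all probe sets passed. Pdgfrb, the PDGF receptor, was lower in inducible cells at -0.67 (adjusted p = 1.26e-07), and Itgb2, the beta chain of the receptor of ICAM1, at -0.38 (adjusted p = 2.93e-06). Fgfr2, a fibroblast growth factor receptor, was lower at -0.26 (adjusted p = 3.44e-05). Itgb7, a beta chain that pairs with Itga4, was higher at 0.48 (adjusted p = 1.14e-07 from limma).

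Of 22 sheddases and proteases that cut adhesion molecules, 20 were measured. With RSL in inducible cells, where 2.54% of all probe sets passed, 2 of the 20 (10%) fell. Mmp3, the matrix metalloproteinase stromelysin, averaged 10.21 under DMSO and 9.95 under RSL in inducible cells, and 9.09 and 9.39 in parental cells. It fell by 0.26 in the former (adjusted p = 0.00283) and rose by 0.29 in the latter (adjusted p = 0.0209), and the difference of the effects was -0.56 (standard error 0.06, adjusted p = 0.000262 from limma). The rise in parental cells did not pass without parental DMSO replicate 3 or any 1 of the 3 parental RSL arrays (adjusted p up to 0.116). It did not pass with only the 6 parental arrays in the fit either (adjusted p = 0.0684 in limma). Adam19, a membrane metalloproteinase, fell by 0.17 in inducible cells (adjusted p = 0.027), a call that ended without any 1 of the 6 inducible arrays (adjusted p up to 0.117) and with the replicate number as a block (adjusted p = 0.0563 in limma). Adam10 and Adam17, well known sheddases of adhesion molecules including ALCAM and VCAM1, did not pass with RSL in either line. Between the lines 4 proteases were higher and 4 lower, 40% of the 20, where 29.7% of all probe sets passed. Among these proteases were Mmp3 at 1.12 (adjusted p = 6.34e-12), Adam12 at -0.40 (adjusted p = 5.36e-06) and Bace1 at -0.30 (adjusted p = 2.45e-06). Adam10 was higher at 0.17 (adjusted p = 0.0464), and Adam17 did not pass at -0.05 (adjusted p = 0.368 from limma). Adam10 and Adam17 were named as known sheddases, after their values were seen.

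Of 14 enzymes that add polysialic acid and other sugars to these molecules, 10 were measured. With RSL in inducible cells 20% of the 10 passed, where 2.54% of all probe sets did. There Fut8, the core fucosyltransferase, rose by 0.24 (adjusted p = 0.00393 from limma) and St3gal4, a sialyltransferase, fell by 0.17 (adjusted p = 0.022). The call of St3gal4 ended without inducible DMSO replicate 1 or 3 or RSL replicate 1 or 2 (adjusted p up to 0.103). Between the lines under DMSO 2 of the 10 (20%) were lower in inducible cells, where 29.7% of all probe sets passed. These 2 were St6gal1, another sialyltransferase, at -0.82 (adjusted p = 9.07e-12) and Fut8 at -0.23 (adjusted p = 0.000262 from limma). The medians of the 6 lists lay between -0.02 and 0.03 for RSL in inducible cells and between -0.04 and 0.01 between the lines, beside 0.00 and -0.01 over all probe sets.

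**Figure D4:**
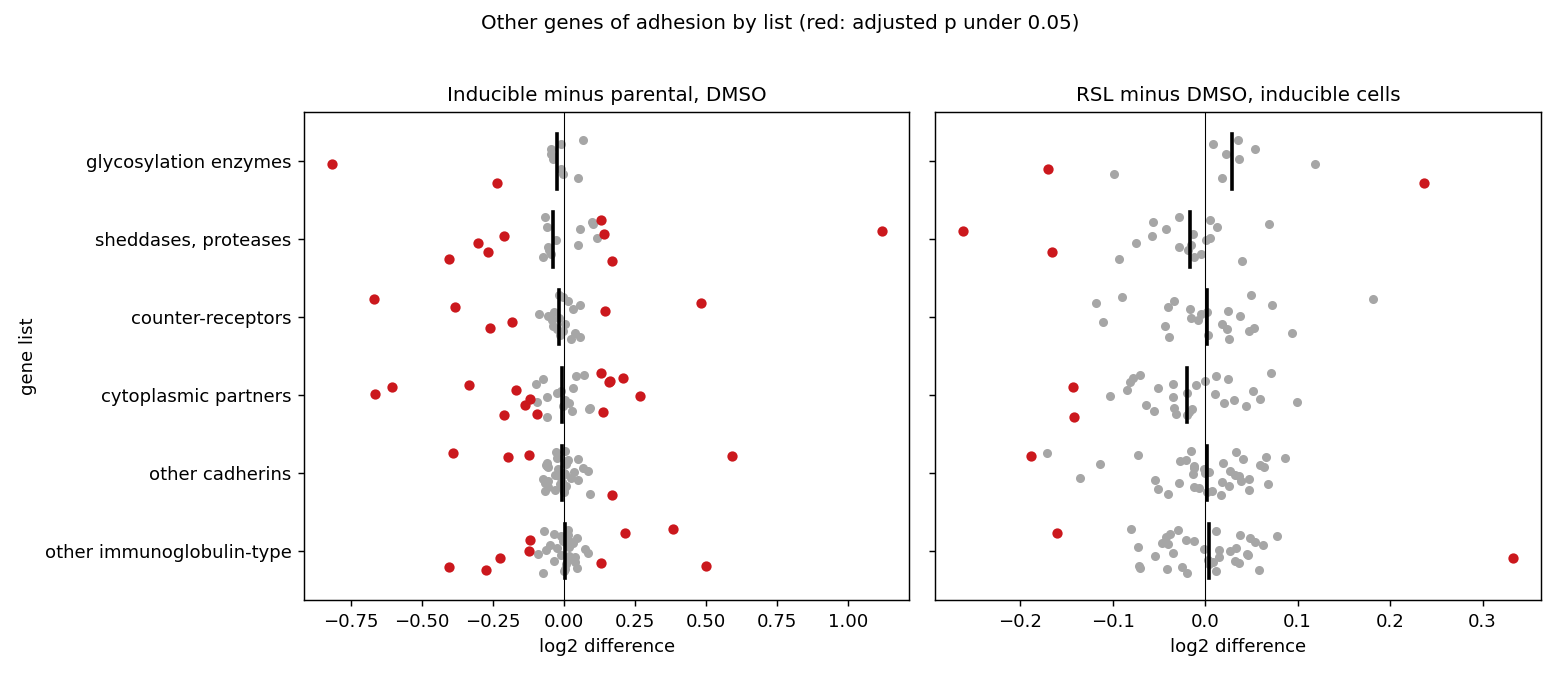
Log2 difference (horizontal axis) of each measured gene of the 6 lists (points), between the lines under DMSO on the left and with RSL in inducible cells on the right; red points passed at an adjusted p under 0.05 in limma and black lines are the medians. The horizontal scales differ. Mmp3 at 1.12 and St6gal1 at -0.82 lie farthest out on the left, and Emb at 0.33 and Mmp3 at -0.26 on the right.

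Of all named genes, those whose values over the 12 arrays ran most like Alcam were Pla2g7, Eid2, H2ax, Scara3 and Ltbp2. Their distance from Alcam (root mean square over the arrays, after each gene's own mean was taken off) was 0.0689 for Pla2g7, 0.0815 for Eid2 and for H2ax, 0.0821 for Scara3 and 0.0937 for Ltbp2, where Alcam itself spreads by 0.531. All were lower in inducible cells, with log2 differences under DMSO from -0.96 for Eid2 to -1.11 for Scara3. Vcam1 ran most like Afp, at 0.0835, Serpina1a, at 0.0951, Vgll3, at 0.107, Tnc, at 0.117, and Cfap69, at 0.12, with its own spread at 0.739. Their differences between the lines ran from 1.21 for Vgll3 to 1.59 for Tnc. Afp and Serpina1a averaged 6.22 and 5.48 in parental cells under DMSO, below the first quartile of the arrays. Their parental levels may be background, so the size of their differences is not read as expression. Serpina1a has near-identical paralogs, so its value is uncertain. The distances are a description over arrays that share 2 lines and 2 treatments. The line differences of these genes follow from choosing them by likeness and are no separate result.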

How the data were processed

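The arrays were Affymetrix mouse genome arrays. The values deposited by the authors are log2 values, for which they grouped probes into Entrez genes with a Custom CDF, corrected background as in RMA and normalized by quantiles. That the scale is log2 was inferred from how far the values range, and the sources used here do not name the step that summarised the probes. The methods name a different RNA reagent from the labels. The table has 0 columns of other samples.

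From 16539 probe sets, 64 controls were left out and 16475 tested without a filter. Of these, 15780 have 1 gene symbol in the annotation given, and the other 695 are not named. A linear model of 4 group means was fitted to all 12 arrays in limma 3.58.1 (R 4.3.3), with Benjamini-Hochberg adjustment over all probe sets and calls at an adjusted p under 0.05. RSL was compared with DMSO in each line, these effects with each other, and the lines under each treatment. The labels and the methods call the replicates biological, but the labels do not state whether they were separate cultures. The p-values cover the spread between these arrays, which may in part be technical, and the number of arrays limits the precision.

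The members and lists were chosen with earlier results of these data known. Named were all members and, per list, up to 4 genes with the smallest p for RSL in inducible cells, the difference of effects and the line difference, plus called genes, as far as the text needs them; others are marked where named. Likeness was the smallest root mean square distance over 12 arrays, for 5 genes. Promoters came from RefSeq. The alternatives tried left out the 40% of probe sets lowest on average or each array in turn, added a replicate block, an intensity trend or array weights, subtracted array medians, repeated the quantile normalization, used only the 6 arrays compared, or took the methods' one-way analysis. Scripts were tested on simulated data.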

Additional observations from a re-analysis of the deposited data

Results flagged for a closer look

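Among the 9 adhesion genes and the 6 lists, the effect of RSL differed between inducible and parental cells for 3 genes. The test was of the difference itself in limma, where 0.662% of all probe sets passed, among them Ier2 (-0.64, adjusted p = 0.000262). For Vcam1 the difference was 0.26 on the log2 scale (inducible minus parental, adjusted p = 0.0108), from a rise of 0.15 in inducible cells and a value of -0.12 in parental cells that did not pass. Emb differed by 0.29 (adjusted p = 0.00486), with 0.33 in inducible and 0.04 in parental cells. Mmp3 differed by -0.56 (adjusted p = 0.000262), with -0.26 in inducible cells and 0.29 in parental cells. The parental rise did not pass with some single arrays left out.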

How the results depend on the processing

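Of the 9 adhesion genes, 1 was called for RSL in inducible cells. The number was 2 with the lowest 40% of mean log2 left out, with an intensity trend, with array weights, with repeated quantile normalization and in the methods' one-way analysis at its nominal threshold, and 0 with only the 6 arrays compared and in the one-way analysis after Benjamini-Hochberg adjustment. Leaving out single arrays gave 0 to 2. In parental cells the number was 0, and 2 in the one-way analysis at the nominal threshold. For the difference of the effects it was 1 under all 18 alternatives, which do not include the fit of only the 6 arrays compared or the one-way analysis. The one-way analysis called 1913 probe sets at the nominal threshold and 1 after adjustment in inducible cells, and 1226 and 0 in parental cells. After that adjustment Emb, Fut8 and Mmp3 did not pass for RSL in inducible cells either (adjusted p = 0.0878, 0.128 and 0.157 in the one-way analysis). The line difference of Alcam under DMSO was -1.17 to -1.09 and that of Vcam1 1.33 to 1.35 with single arrays left out; values for genes other than Alcam were added after seeing the data.

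Small changes that did not pass crossed 0. With single arrays left out, the change with RSL ran from -0.00897 to 0.039 for Cadm1, -0.0200 to 0.0572 for Mcam and -0.0209 to 0.0353 for Nectin3 in inducible cells, and from -0.00723 to 0.0312 for Cadm1, -0.049 to 0.0122 for Icam1 and -0.0578 to 0.0182 for Mcam in parental cells. The difference of the effects ran from -0.0179 to 0.0301 for Cadm1, -0.00798 to 0.0975 for Cdh11, -0.0552 to 0.0101 for Icam1, -0.00544 to 0.0886 for Mcam and -0.0276 to 0.023 for Nectin2. Cadm1 was at -0.0157 in parental cells with repeated quantile normalization and at -0.00356 for the difference with array weights, and Nectin3 at -0.0028 in inducible cells with array medians subtracted. The cause was not tested.

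The deviations of same-numbered arrays from their group means correlated at -0.296 to 0.214 in 4 pairs of groups. With so few arrays in a group, these correlations cannot decide whether the numbers pair the arrays. With the replicate number as a block, the counts of the 9 genes stayed at 1, 0 and 1 for RSL in inducible cells, in parental cells and the difference, but among the other adhesion genes the calls of Actn1, Pdlim1 and Adam19 for RSL in inducible cells were lost (adjusted p = 0.0594, 0.0828 and 0.0563 in limma). Values near or below the first quartile of an array limit what Icam1, Mcam, Cadm1 and Cdh11 can show.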

Other observations

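The genes that lie beside Alcam and Vcam1 in RefSeq order were looked at after their values were seen, 5 measured genes on each side. Among the 10 beside Alcam, 4 were higher in inducible than in parental cells under DMSO and 0 lower in limma, where 15.2% of all probe sets were higher and 14.5% lower. These were Ift57, of ciliary transport, at 0.31 (adjusted p = 7.02e-05), Cd47 at 0.50 (adjusted p = 5.8e-09), Bbx at 0.20 (adjusted p = 0.00109) and Nfkbiz, a regulator of NF-kB, at 0.39 (adjusted p = 3.62e-06 from limma). Alcam itself was lower. Cblb, its nearest measured neighbour on the side of Bbx, Cd47 and Ift57, lies between them and Alcam and did not pass at 0.00. Nfkbiz is the nearest measured neighbour on the opposite side. Among the 10 beside Vcam1, 1 was higher, Dbt at 0.21 (adjusted p = 0.014), and 2 were lower, Rtca at -0.13 (adjusted p = 0.0211) and Lrrc39 at -0.14 (adjusted p = 0.00476). Lrrc39 lay below the first quartile on all 12 arrays, so its level may be background. The values beside Vcam1 ran from -0.14 to 0.21, against 1.34 for Vcam1 itself.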
